A study of Rattus norvegicus with 5 samples.

Results

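The interferon response and antigen presentation were followed in 49 rat genes, chosen by name, of which 48 were matched by RefSeq accession to a probe, out of 15154 genes read on the arrays. No probe was matched to Xaf1. Values are log2 ratios of 3D over 2D, and 44 of the 48 genes gave a signal well above the local background in at least 1 condition. The other 4 were Irf2, Ifih1, Ifit1 and Gbp5. The samples were FRT cells, 1 established epithelial line from the thyroid of Fischer rats, taken on day 5 of culture. The 3D group was 4 cultures of follicles in Matrigel, a basement membrane extract, each labelled with Cy5. The 2D group was 1 pool of 4 confluent monolayers, labelled with Cy3 beside each 3D culture. On the fifth array the dyes were swapped, with pooled RNA of the 3D cultures under Cy3 and that of the 2D pool under Cy5. It is called the swapped array. No interferon, virus or other treatment is named for any culture.

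Interferons are secreted proteins that warn cells of infection. A cell reads type I interferon through a receptor that holds Ifnar1 and type II interferon through one that holds Ifngr1, and STAT and IRF transcription factors then switch on a shared set of genes. The products of this set degrade or sequester viral RNA, tag proteins with the small modifier Isg15, and fit the proteasome, the TAP peptide pump and class I molecules for showing peptides on the cell surface. Thyroid follicular cells are known to raise their class I and class II molecules when given interferon gamma.

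All 5 arrays lay on 1 slide, with 58717 spots each. Of the probes, 47.1% to 50.9% were well above background on the 3D side and 45% to 50.1% on the 2D side. Over all genes the replicate arrays correlated with each other at r = 0.871 to 0.946, and the swapped array with them at 0.734 to 0.765. Of 15 epithelial and thyroid markers 11 lay well above background, with the thyroid factor Pax8, its target Cdh16, Epcam and Krt19 higher in 3D and the claudins Cldn3 and Cldn4 lower. Nkx2-1, Tg, Tshr and Slc5a5, which mark differentiated thyrocytes, were not well above background in either condition. Of 13 leukocyte markers 4 lay above it (Cd79b, Csf1r, Lyz2 and Cd14), and Ptprc, Cd3e, Itgam, Adgre1 and Cd68 did not. Csf1r did so on 1 array in 2D only, and Lyz2 on 1 array in 3D and 2 in 2D. By limma Lyz2 was lower in 3D (fit -0.20, adjusted p = 0.00929). In such bulk RNA, fewer cells of a type and less RNA per cell cannot be told apart.

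Follicles had higher RNA levels than monolayers for 22 of the 48 genes and lower levels for 6, by limma at an FDR of 0.01. That was 45.8% higher, against 14.4% of all genes, and 12.5% lower, against 11.4% of all genes. The share that was lower was close to that of all genes. Among the 9015 genes of the array well above background, 24.2% were higher and 19.2% lower. The median log2 ratio of the 48 genes was 0.16, against 0.00 over all genes. Only 4 genes were higher by at least 2-fold (Gbp2, Irf1, Psmb10 and Parp14) and 2 lower by as much (Rsad2 and Bst2). Over all 15154 genes these counts were 180 and 149. The 20 listed genes that did not pass had fitted log2 changes of -0.58 to 0.20. At an unadjusted p under 0.05 the counts were 27 higher and 9 lower. Over all 15154 genes they were 3382 and 2729, and over the 9015 well above background 3220 and 2531. The calls rest on the loess correction of the dyes, since with median centring in its place limma called none of the 48 genes (25 higher and 1 lower at an unadjusted p under 0.05) and 7 of all 15154. With a normexp offset of 0 the calls of Irf7, Ifit3, Bst2, Ifi35, Psmb8 and B2m were lost, and with Agilent's processed signals those of the same genes except B2m. With a term for the dye added to the fit, the calls of Ifit3 and Psmb8 were lost. Because the 2D side was 1 pool, the test holds no spread between 2D cultures, and the swapped array holds pools of the same cultures.

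**Figure D1:**
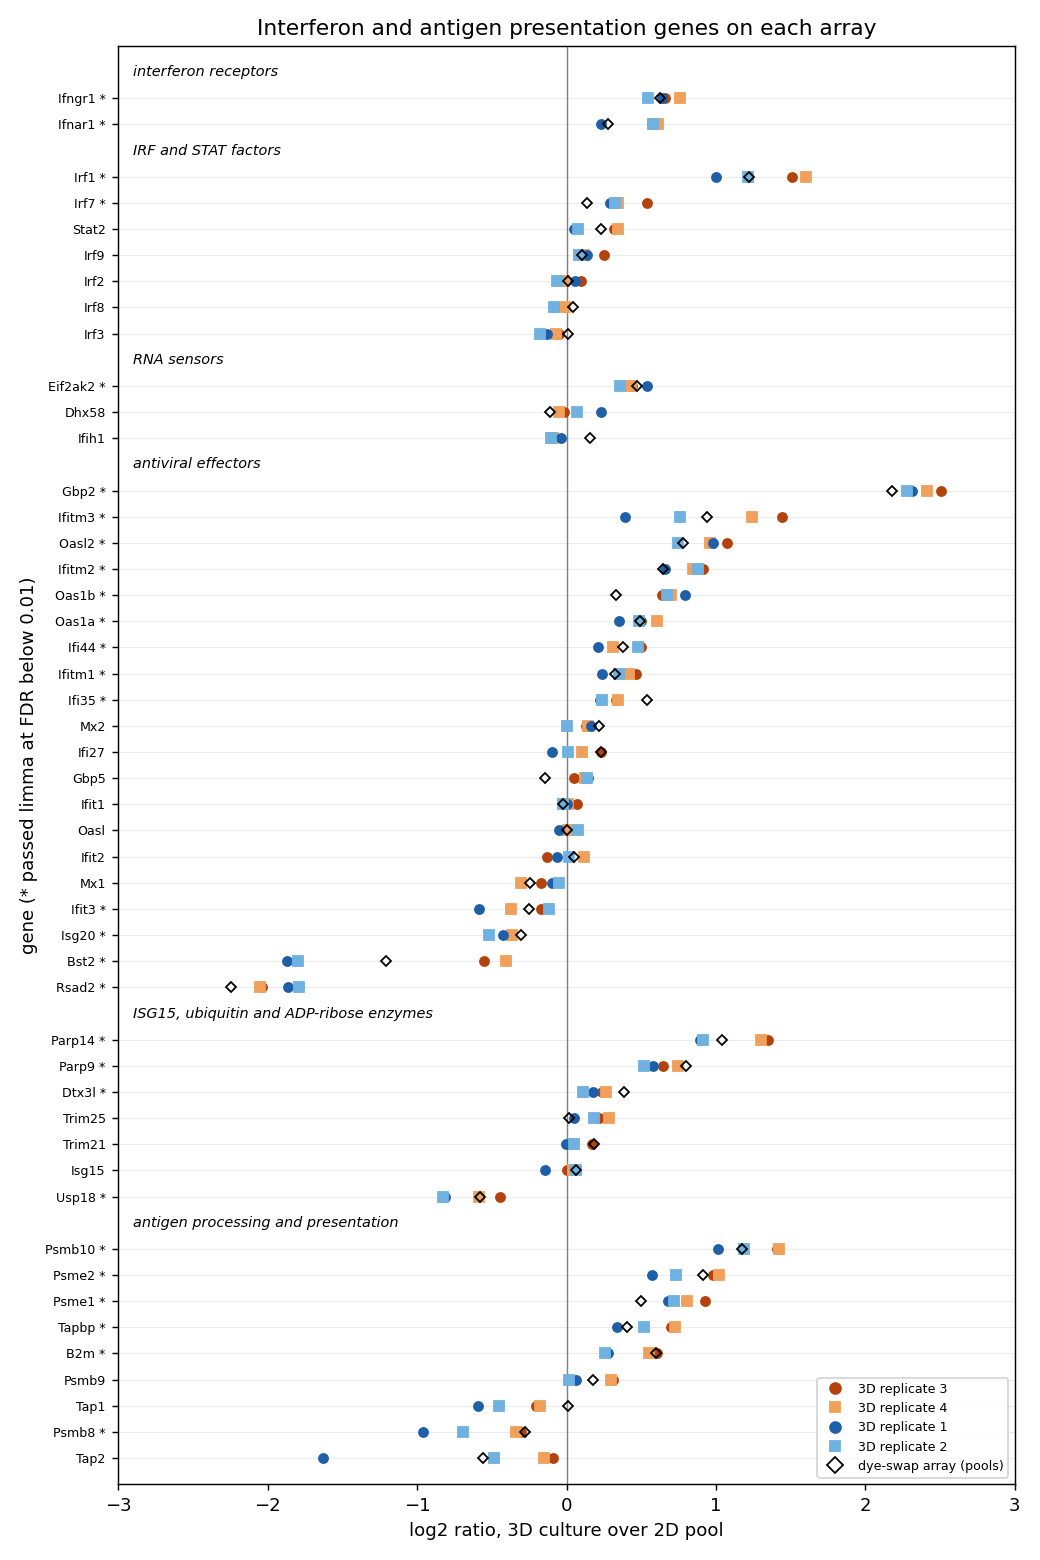
Log2 ratio of 3D over 2D for each of the 48 measured genes (rows, grouped by role), with 1 point per array: replicates 3 and 4, replicates 1 and 2, and the swapped array. Gbp2 lies farthest to the right, at 2.18 to 2.50, and Rsad2 farthest to the left, at -2.25 to -1.79, while the points of Bst2, Tap2, Ifitm3 and Psmb8 are spread out with replicates 3 and 4 to the right of replicates 1 and 2.

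Both receptor chains on the list were higher in 3D. Ifngr1, the ligand-binding chain of the interferon gamma receptor, measured 0.66 and 0.76 in replicates 3 and 4, 0.64 and 0.55 in replicates 1 and 2 and 0.63 on the swapped array, a fitted change of 0.65 (adjusted p = 3.15e-06). Ifnar1, a chain of the type I receptor, measured 0.57 and 0.61 in replicates 3 and 4, 0.23 and 0.58 in replicates 1 and 2 and 0.28 on the swapped array (fit 0.46, adjusted p = 4.40e-04). Its replicate 1 lay apart from the other 3 replicates, near the swapped array.

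Of 7 IRF and STAT factors, 2 were higher (28.6%, against 14.4% of all genes and 24.2% of those well above background). None was lower, and 4 were higher at an unadjusted p under 0.05. Irf1, a factor that interferon gamma induces quickly and that drives class I genes, measured 1.51 and 1.61 in replicates 3 and 4, 1.00 and 1.22 in replicates 1 and 2 and 1.22 on the swapped array, or 2.48-fold higher in 3D (adjusted p = 1.94e-06). Another Irf1 probe gave 0.85. Irf7, which amplifies type I interferon production, measured 0.54 and 0.35 in replicates 3 and 4, 0.29 and 0.32 in replicates 1 and 2 and 0.13 on the swapped array with a fitted change of 0.33 (adjusted p = 0.00139). That call was lost with a normexp offset of 0 (0.71, adjusted p = 0.0158) and with Agilent's processed signals (0.94, adjusted p = 0.0133). Stat2, a part of the ISGF3 complex, came to 0.20 and missed the threshold (adjusted p = 0.0165), and Irf2, Irf3, Irf8 and Irf9 lay between -0.08 and 0.14. All 5 arrays thus placed Irf1 above its 2D level, by the largest margin among these factors.

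Among the RNA sensors, the kinase PKR (Eif2ak2), which halts translation on binding double-stranded RNA, was the one of 3 that passed. It measured 0.44 and 0.43 in replicates 3 and 4, 0.54 and 0.36 in replicates 1 and 2 and 0.47 on the swapped array (fit 0.45, adjusted p = 2.41e-05). Ifih1 and Dhx58, RNA helicases of the RIG-I family, came to -0.03 and 0.03 and did not pass, and Ifih1 was not well above background.

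Of 20 antiviral effectors 9 were higher (45%, against 14.4% of all genes and 24.2% of those well above background). In the same group 4 were lower (20%, against 11.4% and 19.2%), a share near that of genes well above background. The guanylate-binding GTPase Gbp2 had the highest change of all 48 genes, 2.50 and 2.42 in replicates 3 and 4, 2.31 and 2.28 in replicates 1 and 2 and 2.18 on the swapped array, which is 5.06-fold (log2 2.34 with SE 0.05, adjusted p = 8.59e-09). Its replicates averaged 2.38 ± 0.10 (SD, n = 4), so the change was many times the spread. Gbp5 of the same family was not well above background. The 2',5'-oligoadenylate synthetases make the messenger that activates RNase L, and their near-identical copies may share signal. Oas1a measured 0.50 and 0.61 in replicates 3 and 4, 0.35 and 0.49 in replicates 1 and 2 and 0.49 on the swapped array (fit 0.49, adjusted p = 2.54e-05). Oas1b measured 0.64 and 0.70 in replicates 3 and 4, 0.80 and 0.68 in replicates 1 and 2 and 0.33 on the swapped array (fit 0.63, adjusted p = 4.53e-05). Oasl2, a relative of these enzymes, measured 1.08 and 0.96 in replicates 3 and 4, 0.98 and 0.75 in replicates 1 and 2 and 0.78 on the swapped array (fit 0.91, adjusted p = 1.79e-06). All 3 were thus higher in 3D on each array. Oasl, next to Oasl2 on chromosome 12, came to 0.00 and did not pass. It was well above background on only 1 array in 3D and 1 in 2D.

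The interferon-induced transmembrane proteins, which hinder the fusion of viruses with cell membranes, were all 3 higher in 3D, again with the reserve that close copies may share signal. Ifitm2 measured 0.91 and 0.85 in replicates 3 and 4, 0.66 and 0.88 in replicates 1 and 2 and 0.64 on the swapped array (fit 0.79, adjusted p = 3.13e-06). Ifitm1 measured 0.47 and 0.42 in replicates 3 and 4, 0.24 and 0.35 in replicates 1 and 2 and 0.32 on the swapped array (fit 0.36, adjusted p = 1.83e-04). Ifitm3 measured 1.44 and 1.24 in replicates 3 and 4, 0.39 and 0.76 in replicates 1 and 2 and 0.94 on the swapped array (fit 0.96, adjusted p = 2.69e-04), and here replicates 3 and 4 were clearly the highest and replicate 1 the lowest. Ifi35, which binds the related protein Nmi, measured 0.33 and 0.34 in replicates 3 and 4, 0.22 and 0.23 in replicates 1 and 2 and 0.54 on the swapped array (fit 0.33, adjusted p = 7.73e-04). Ifi44, a cytoplasmic protein that interferon induces, measured 0.50 and 0.31 in replicates 3 and 4, 0.21 and 0.48 in replicates 1 and 2 and 0.38 on the swapped array (fit 0.38, adjusted p = 3.05e-04). Both had small changes of one sign on each array.

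Rsad2 (viperin), an enzyme that makes a chain-terminating nucleotide against viral polymerases, was lower in 3D by the widest margin. It measured -2.04 and -2.05 in replicates 3 and 4, -1.87 and -1.79 in replicates 1 and 2 and -2.25 on the swapped array, a log2 change of -2.00 with SE 0.06 (adjusted p = 5.68e-08). The replicates averaged -1.94 ± 0.13 (SD, n = 4), and no array came near 0. Bst2 (tetherin), which holds budding virus particles on the cell surface, was lower as well but unevenly so. It measured -0.56 and -0.40 in replicates 3 and 4, -1.87 and -1.80 in replicates 1 and 2 and -1.21 on the swapped array (fit -1.17 with SE 0.20, adjusted p = 0.00151). That call was lost with an offset of 0 (-1.25, adjusted p = 0.0189) and with Agilent's processed signals (-1.27, adjusted p = 0.0211). The values fell into a higher pair and a lower pair, with the swapped array between them. Isg20, an exonuclease that degrades RNA, measured -0.38 and -0.37 in replicates 3 and 4, -0.43 and -0.52 in replicates 1 and 2 and -0.30 on the swapped array (fit -0.40, adjusted p = 7.58e-05, but 0.11 and not called with median centring). Ifit3, of a family that binds foreign RNA, measured -0.17 and -0.37 in replicates 3 and 4, -0.58 and -0.12 in replicates 1 and 2 and -0.25 on the swapped array (fit -0.30, adjusted p = 0.00597) and lost its call when replicate 1, 3 or 4 was left out (adjusted p of 0.0142, 0.0115 and 0.0289). The GTPases Mx1 and Mx2 came to -0.17 and 0.13 and did not pass, nor did Ifit1, Ifit2 and Ifi27.

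Isg15 itself, the ubiquitin-like protein that is attached to targets after interferon, had a fitted change of 0.00 (adjusted p = 0.96) and is among the 3 of its group of 7 that did not pass, with the ubiquitin ligases Trim21 and Trim25. Usp18, the protease that takes Isg15 off again and damps type I signalling, was lower in 3D, at -0.45 and -0.59 in replicates 3 and 4, -0.81 and -0.82 in replicates 1 and 2 and -0.58 on the swapped array (fit -0.65, adjusted p = 2.58e-05). Parp9, Dtx3l and Parp14, neighbours on chromosome 11, were all higher in 3D. Parp9, which forms a complex with the ligase Dtx3l, measured 0.64 and 0.75 in replicates 3 and 4, 0.58 and 0.52 in replicates 1 and 2 and 0.80 on the swapped array (fit 0.66, adjusted p = 7.45e-06). Dtx3l measured 0.24 and 0.27 in replicates 3 and 4, 0.17 and 0.11 in replicates 1 and 2 and 0.38 on the swapped array (fit 0.23, adjusted p = 0.00374), a small change that missed the threshold without replicate 3 or without replicate 4 (adjusted p of 0.0173 and 0.0203). Parp14, an ADP-ribosyltransferase of the same locus, had the largest change of the group. It measured 1.35 and 1.30 in replicates 3 and 4, 0.89 and 0.91 in replicates 1 and 2 and 1.04 on the swapped array, or 2.14-fold (adjusted p = 3.15e-06). Another Parp14 probe also gave a higher level in 3D, 0.69, but with the order of the replicates turned, at 0.54 and 0.63 in replicates 3 and 4 against 0.82 and 0.86 in replicates 1 and 2.

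The 9 genes of antigen processing divided between 5 higher, 1 lower and 3 that did not pass, and the division ran through single complexes. The share higher was 55.6%, against 14.4% of all genes and 24.2% of those well above background. The share lower was 11.1%, against 11.4% and 19.2%. Psmb8, Psmb9 and Psmb10 are the 3 catalytic subunits that interferon gamma exchanges into the immunoproteasome. Psmb10 measured 1.41 and 1.42 in replicates 3 and 4, 1.01 and 1.19 in replicates 1 and 2 and 1.17 on the swapped array, or 2.37-fold higher (adjusted p = 5.78e-07). Psmb9 measured 0.31 and 0.30 in replicates 3 and 4, 0.07 and 0.02 in replicates 1 and 2 and 0.18 on the swapped array and did not pass (fit 0.18, adjusted p = 0.0312). Psmb8 was lower, at -0.31 and -0.34 in replicates 3 and 4, -0.96 and -0.70 in replicates 1 and 2 and -0.28 on the swapped array (fit -0.52, adjusted p = 0.00221), and lost its call without replicate 2 (adjusted p = 0.0135), and with median centring its fit was 0.019 and not called. Of these 3 subunits, 1 was thus higher, 1 lower and 1 not past the threshold. Psme1 and Psme2, which form the PA28 cap of the proteasome, were both higher. Psme1 measured 0.92 and 0.81 in replicates 3 and 4, 0.68 and 0.72 in replicates 1 and 2 and 0.50 on the swapped array (fit 0.73, adjusted p = 1.15e-05). Psme2 measured 0.98 and 1.02 in replicates 3 and 4, 0.57 and 0.73 in replicates 1 and 2 and 0.91 on the swapped array (fit 0.84, adjusted p = 9.06e-06).

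Tap1 and Tap2, the subunits of the pump that carries peptides into the endoplasmic reticulum, did not pass. Tap1 measured -0.20 and -0.18 in replicates 3 and 4, -0.59 and -0.45 in replicates 1 and 2 and 0.01 on the swapped array (fit -0.28, adjusted p = 0.0198). Tap2 measured -0.09 and -0.15 in replicates 3 and 4, -1.63 and -0.49 in replicates 1 and 2 and -0.56 on the swapped array (fit -0.58, adjusted p = 0.0371), with replicate 1 far below the rest, and without that replicate its fit was -0.32. Tapasin (Tapbp), which bridges the pump and class I molecules, was higher, at 0.70 and 0.73 in replicates 3 and 4, 0.34 and 0.52 in replicates 1 and 2 and 0.40 on the swapped array (fit 0.54, adjusted p = 1.18e-04). B2m, the light chain of class I molecules, was also higher, at 0.61 and 0.55 in replicates 3 and 4, 0.28 and 0.26 in replicates 1 and 2 and 0.60 on the swapped array (fit 0.46, adjusted p = 3.35e-04).

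The 4 replicate arrays were not alike in the log2 ratios of these genes. Replicates 3 and 4 both lay above replicates 1 and 2 in 29 of the 48 genes (60.4%), against 22.3% of all genes and 26% of genes well above background. They both lay below in 4 genes (8.33%), Dhx58, Mx1, Rsad2 and Gbp5, against 19% of all genes and 21% of those well above background, and this count was 7 without replicate 1 and 8 without replicate 2 (34.7% and 36.3% of all genes). In the other 15 genes the pairs overlapped. The mean of replicates 3 and 4 was above the mean of replicates 1 and 2 in 40 of 48 genes, by a median of 0.12 on the log2 scale, against 0.00 over all genes. The labels call all 4 biological replicates of one group and name no difference between them. The split into these pairs was also proposed with results of these data in view. For both reasons this comparison was not tested. Its counts, shares and ranks only describe these 4 arrays.

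**Figure D2:**
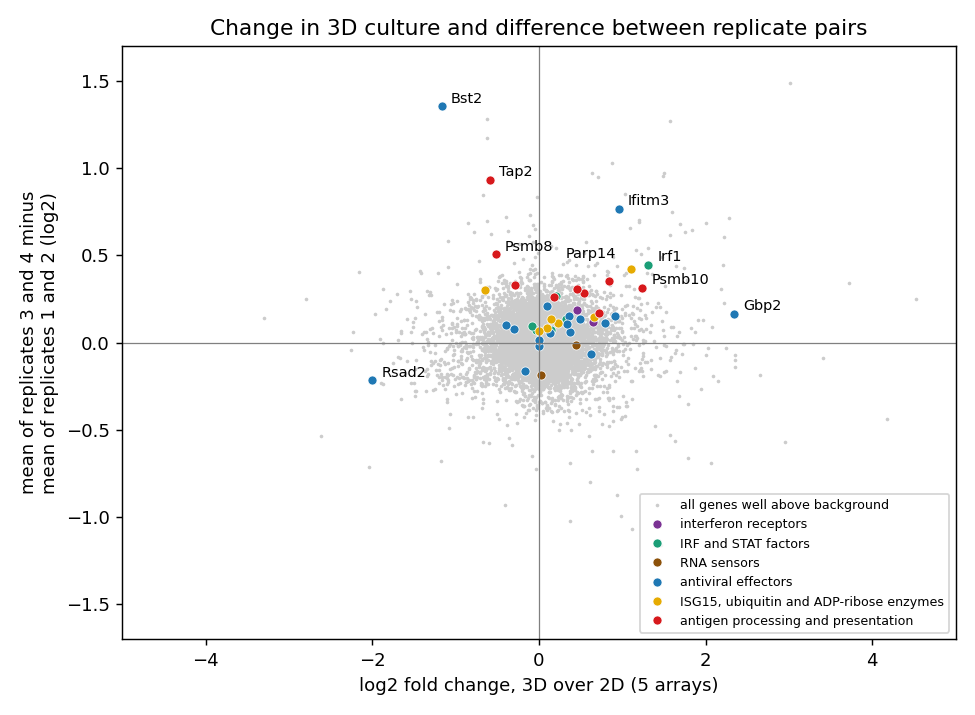
Fitted log2 change of 3D over 2D (horizontal axis) against the mean log2 ratio of replicates 3 and 4 minus that of replicates 1 and 2 (vertical axis), with the 44 listed genes well above background in colour over all such genes in grey. Most coloured points lie above 0 on the vertical axis on both sides of the horizontal 0, with Bst2 at 1.36, Tap2 at 0.93, Ifitm3 at 0.77 and Psmb8 at 0.50 the highest.

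Differences of at least 0.25 with replicates 3 and 4 higher were found in 14 of the 48 genes, against 4.25% of genes well above background, and in the opposite direction in 0 genes, against 3.15%. At 0.5 or more there were 4 genes of the list among 49 of 9013 (0.544%). Bst2 had the second highest difference of these 9013 genes, 1.36. Tap2 was at rank 11 with 0.93, but its difference was 0.36 without replicate 1. Ifitm3 was at rank 15 with 0.77 and Psmb8 at rank 49 with 0.50. The split was not bound to the direction of the change in 3D, since Bst2 and Psmb8 were lower in 3D, Ifitm3 was higher and Tap2 did not pass.

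By role, the pairs stood apart most widely in antigen processing, where all 9 genes had replicates 3 and 4 above replicates 1 and 2. The 9 differences ran from 0.17 for Psme1 to 0.93 for Tap2, with a median of 0.31, and 8 of the 9 reached 0.25. The group's median log2 ratio was 0.61 and 0.55 in replicates 3 and 4, 0.28 and 0.26 in replicates 1 and 2 and 0.40 on the swapped array. On each replicate array this median was the value of B2m. The signal of B2m ranged more widely in the 2D channel than in the 3D channel (0.45 against 0.10). For Psmb10 the pairs overlapped in the 3D channel. Of IRF and STAT factors 5 of 7 had the pairs apart in this direction, of the Isg15, ubiquitin and ADP-ribose genes 5 of 7, of antiviral effectors 9 of 20 and of RNA sensors 0 of 3. Among the Isg15, ubiquitin and ADP-ribose genes, other probes of Usp18 and Parp14 did not have the pairs apart in this direction. Over all 48 genes the median was 0.24 and 0.28 in replicates 3 and 4, 0.15 and 0.10 in replicates 1 and 2, and 0.20 on the swapped array, which carried a pool of the 3D cultures.

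**Figure D3:**
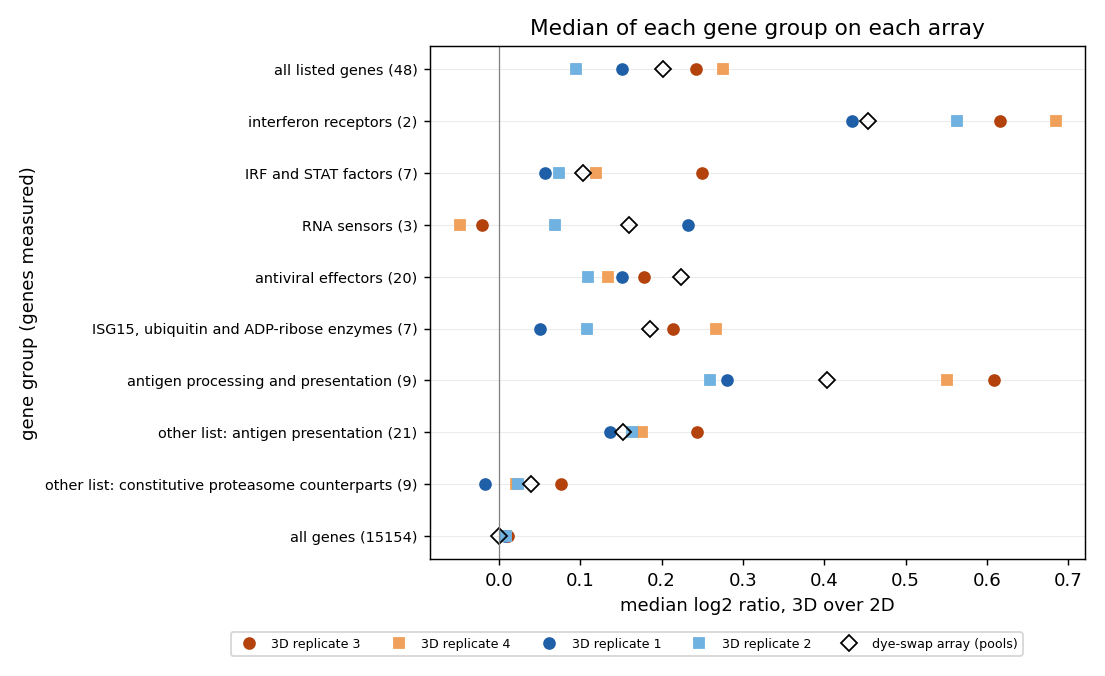
Median log2 ratio of 3D over 2D on each array for the 48 genes, for each role group and for all genes. In antigen processing replicates 3 and 4 (0.61 and 0.55) lie to the right of replicates 1 and 2 (0.28 and 0.26), while the medians of all genes lie between 0.00 and 0.01 on every array. The antigen processing median on each replicate array is the value of B2m.

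The ratio joins a 3D culture with the 2D pool, so a signal for each channel was also computed. It came from the normalized ratio and average intensity, so neither channel was read on its own. An effect of a spot or array moves both channels together, as the values of Ifi27 did. A wider range in 1 channel therefore does not by itself place a split on that side. Of the 29 genes with replicates 3 and 4 above replicates 1 and 2, 21 ranged more widely over the replicate arrays in the 3D channel and 8 in the 2D channel, where every array held the same pool. For those 8 (Ifngr1, Irf7, Oas1a, Ifit1, Ifi27, Gbp2, Trim25 and B2m) the split is not shown to be one between 3D cultures. Nor is it shown for Psmb10 and Isg20, which are among the 21 but whose pairs overlapped in the 3D channel. There the log2 intensity of Psmb10 was higher on replicate 2 (12.47) than on replicate 3 (12.25). That of Isg20 was slightly higher on replicate 1 (9.22) than on replicate 3 (9.21). For Bst2, Tap2, Ifitm3 and Psmb8 the range was several times wider in the 3D channel than in the 2D channel. The normalized log2 intensity of Bst2 was 10.12 and 10.25 in the 3D channel of replicates 3 and 4 and 8.84 and 8.80 in that of replicates 1 and 2. That is a range of 1.45 in the 3D channel, against 0.11 in the 2D channel. The range over the 4 replicate arrays was 1.56 in the 3D channel and 0.10 in the 2D channel for Tap2, 1.01 and 0.21 for Ifitm3, and 0.68 and 0.05 for Psmb8. Bst2 has 1 spot per array, so its values have no second reading on the array, while the other 3 genes were each averaged from 2 spots. Among the 8 genes of the reverse kind the ranges in the 3D and 2D channels were 0.10 and 0.45 for B2m, 0.05 and 0.22 for Gbp2, and 0.42 and 0.75 for Ifi27. Psmb10 ranged by 0.49 and 0.43 in the 3D and 2D channels, so neither side stood out.

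**Figure D4:**
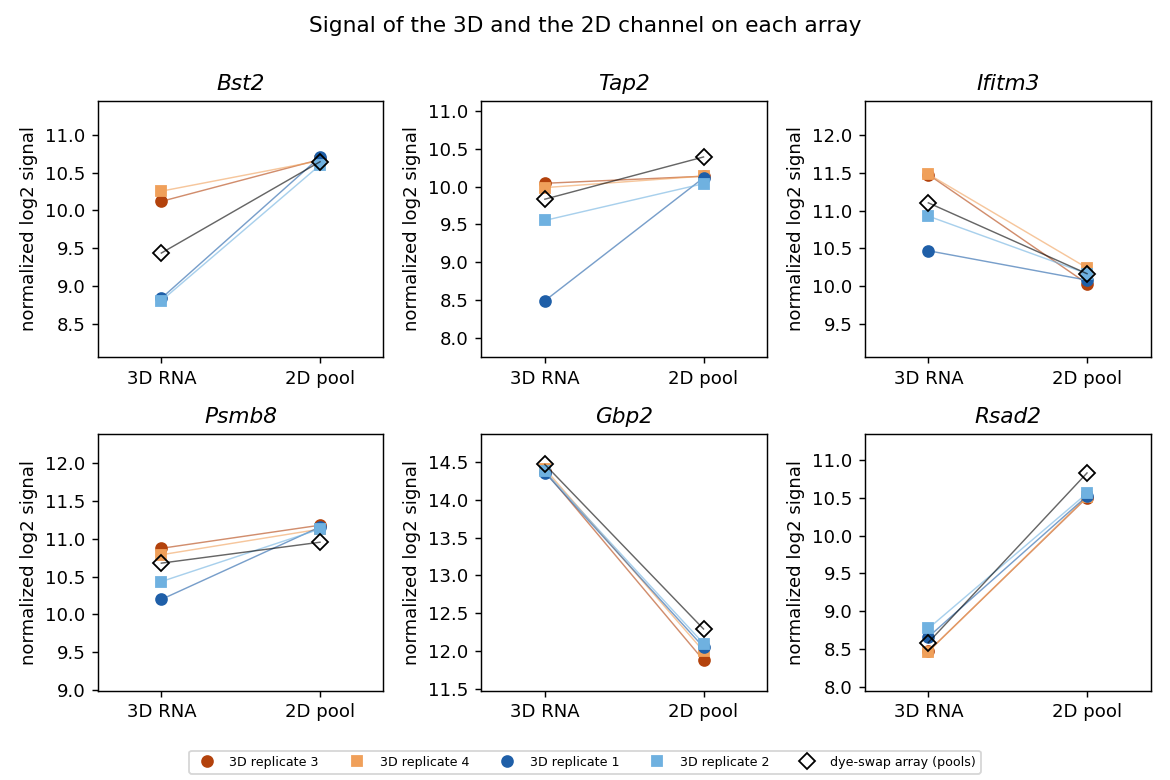
Normalized log2 intensity in the 3D channel (left) and the 2D channel (right) for 6 genes, with a line joining the 2 channels of an array. The 3D values of Bst2 range over 1.45 and those of Tap2 over 1.56 across the replicates while their 2D values range over 0.11 and 0.10, and the lines of Gbp2 and Rsad2 run nearly parallel.

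Markers of other cell types were set beside this split. Col3a1, a collagen of fibroblasts, moved the opposite way, at -0.07 and -0.10 in replicates 3 and 4, 1.09 and 0.78 in replicates 1 and 2 and 0.17 on the swapped array, with a difference of -1.02 between the pairs. Of the other fibroblast markers Pdgfra was higher in 3D (fit 0.55, adjusted p = 6.76e-06) with a difference of -0.03 between the pairs, and Col1a1 and Col1a2, both well above background, had fits of 0.06 and -0.11 that did not pass. Pdgfrb, Dcn, Lum and Thy1 were not well above background, and the median of the 8 fibroblast markers was -0.05 and 0.00 in replicates 3 and 4, beside 0.00 and 0.11 in replicates 1 and 2. Cd14, a lipopolysaccharide co-receptor on the leukocyte list, measured 0.58 and 0.57 in replicates 3 and 4, -0.10 and 0.17 in replicates 1 and 2 and -0.20 on the swapped array and did not pass, while the median of the 13 leukocyte markers was -0.05 and -0.04 in replicates 3 and 4, beside -0.10 and 0.04 in replicates 1 and 2. The part of these in the differences between replicates was not tested.

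The DNA before these genes was read for 2 motifs. The interferon-stimulated response element (ISRE), which ISGF3 and IRF factors bind, was searched as GAAA, any 2 bases and GAAA again on both strands, and the gamma-activated site (GAS), which STAT factors bind, as TTC, any 3 bases and GAA, which reads the same on both strands. RefSeq promoters of the build GRCr8, from 250 bases before to 50 after the start, were given for 40 of the 48 genes. An ISRE match was found in 26 of the 40 (65%), against 3.77% of 27457 promoters, and a GAS match in 9 (22.5%), against 8.68%. By direction in 3D, ISRE matches were found in 15 of 21 genes that were higher, 5 of 5 that were lower and 6 of 14 that did not pass. Antigen processing had 7 of 9 and antiviral effectors 13 of 16. A match is a string of letters, not a bound site, and interferon-induced genes are known for the ISRE.

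Promoters are shown for the 3 genes with an ISRE match whose replicate pairs differed most, and for Rsad2, which differed the other way. They lie at chr16:18254918-18255217 (Bst2), chr20:4652247-4652546 (Tap2), chr1:205541709-205542008 (Ifitm3) and chr6:48788071-48788370 (Rsad2), all on the minus strand, and are written 5′ to 3′ with ISRE matches in capitals.
Bst2: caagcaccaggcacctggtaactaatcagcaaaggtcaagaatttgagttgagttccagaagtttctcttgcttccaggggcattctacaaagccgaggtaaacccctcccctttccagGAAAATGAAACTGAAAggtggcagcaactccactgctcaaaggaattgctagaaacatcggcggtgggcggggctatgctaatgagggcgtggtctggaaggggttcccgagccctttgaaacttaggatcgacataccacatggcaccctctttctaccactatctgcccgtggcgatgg
Tap2: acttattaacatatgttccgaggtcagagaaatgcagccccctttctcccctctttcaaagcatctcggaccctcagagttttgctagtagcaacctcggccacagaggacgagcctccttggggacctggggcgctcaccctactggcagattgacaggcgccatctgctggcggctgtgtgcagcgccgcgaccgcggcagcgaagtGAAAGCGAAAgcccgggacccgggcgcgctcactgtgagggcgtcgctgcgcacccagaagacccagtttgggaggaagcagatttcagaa
Ifitm3: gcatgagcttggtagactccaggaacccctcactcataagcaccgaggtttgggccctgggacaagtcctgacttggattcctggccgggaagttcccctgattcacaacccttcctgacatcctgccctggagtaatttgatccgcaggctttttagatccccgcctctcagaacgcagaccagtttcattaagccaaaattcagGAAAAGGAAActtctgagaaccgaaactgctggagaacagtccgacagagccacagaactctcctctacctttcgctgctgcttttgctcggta
Rsad2: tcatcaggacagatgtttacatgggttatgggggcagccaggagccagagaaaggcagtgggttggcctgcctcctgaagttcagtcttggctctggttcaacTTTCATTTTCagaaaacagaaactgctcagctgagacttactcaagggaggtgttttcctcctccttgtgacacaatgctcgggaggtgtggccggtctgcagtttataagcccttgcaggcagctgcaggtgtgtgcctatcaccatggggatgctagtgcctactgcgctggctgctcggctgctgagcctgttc
In Bst2, 2 overlapping matches form the run GAAAATGAAACTGAAA, which a GAS match overlaps. Tap2 has GAAAGCGAAA from position -41 relative to the start site and Ifitm3 has GAAAAGGAAA from position -44, both on the printed strand. Rsad2 has TTTCATTTTC from position -147, which is the element read on the other strand. Bst2 and Rsad2 were lower in 3D and Ifitm3 was higher, so an ISRE match stood before genes of either direction.

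Genes of the pathway outside the list were read in the same way. None of the 4 measured interferon genes (Ifna4, Ifnb1, Ifnk and Ifng) was well above background in either condition, and none passed, with 1 at an unadjusted p under 0.05. Of 14 signalling genes 7 were higher (50%, against 14.4% of all genes and 24.2% of those well above background). In the same list 1 was lower (7.14%, against 11.4% and 19.2%). Socs3, which feeds back on JAK kinases, measured 0.84 and 0.91 in replicates 3 and 4, 0.21 and 0.38 in replicates 1 and 2 and 0.45 on the swapped array (fit 0.56, adjusted p = 0.00138), with replicates 3 and 4 the highest. Jak1, a kinase bound to both receptors, went the other way between the pairs, at 0.08 and 0.27 in replicates 3 and 4, 0.53 and 0.47 in replicates 1 and 2 and 0.33 on the swapped array (fit 0.34, adjusted p = 0.00241). Its call was lost without replicate 1 or without replicate 2 (adjusted p of 0.0105 and 0.0145). Ifngr2, the second chain of the interferon gamma receptor, measured 0.57 and 0.63 in replicates 3 and 4, 0.32 and 0.53 in replicates 1 and 2 and 0.19 on the swapped array (fit 0.45, adjusted p = 5.10e-04). With an offset of 0 the calls of Socs3, Jak1 and Ifngr2 were lost (adjusted p of 0.0126, 0.0297 and 0.0118). With Agilent's processed signals those of Socs3 and Jak1 were lost (adjusted p of 0.0143 and 0.0104).

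Of 8 genes of nucleic acid sensing 5 were higher (62.5%, against 14.4% of all genes and 24.2% of those well above background) and none lower. Sting1, the adaptor that answers DNA in the cytoplasm, measured 2.48 and 2.40 in replicates 3 and 4, 1.50 and 2.50 in replicates 1 and 2 and 2.15 on the swapped array, or 4.61-fold higher in 3D (adjusted p = 1.48e-06). Its replicate 1 was the lowest and still far above 0. Sting1 has 1 spot per array, so its values have no second reading on the array. Ikbke, a kinase that phosphorylates IRF factors, measured 1.59 and 1.60 in replicates 3 and 4, 1.09 and 1.01 in replicates 1 and 2 and 1.28 on the swapped array (fit 1.31, adjusted p = 3.40e-06), with a difference of 0.54 between the pairs. Myd88, an adaptor of Toll-like receptors, measured 0.82 and 0.86 in replicates 3 and 4, 0.56 and 0.80 in replicates 1 and 2 and 0.91 on the swapped array (fit 0.79, adjusted p = 3.68e-06). Of 19 further interferon-induced genes 4 were higher and none lower. The share higher was 21.1%, near the 24.2% of all genes well above background. Lgals3bp, a secreted glycoprotein, measured 1.44 and 1.35 in replicates 3 and 4, 0.99 and 1.18 in replicates 1 and 2 and 0.76 on the swapped array (fit 1.14, adjusted p = 8.10e-06). Rtp4, a receptor chaperone, measured 0.98 and 0.98 in replicates 3 and 4, 0.90 and 0.77 in replicates 1 and 2 and 0.88 on the swapped array (fit 0.90, adjusted p = 5.10e-07). Igtp, an immunity-related GTPase, measured 0.75 and 0.73 in replicates 3 and 4, 0.47 and 0.50 in replicates 1 and 2 and 0.06 on the swapped array (fit 0.50, adjusted p = 0.00174). Its call was lost with an offset of 0 (adjusted p = 0.024) and with Agilent's processed signals (adjusted p = 0.0199). Slfn2, a schlafen gene, measured 0.38 and 0.32 in replicates 3 and 4, 0.12 and -0.02 in replicates 1 and 2 and 0.42 on the swapped array and did not pass (fit 0.24, adjusted p = 0.0185), though it passed without replicate 2 (adjusted p = 0.00567).

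Of 21 other genes of antigen presentation 11 were higher (52.4%, against 14.4% of all genes and 24.2% of those well above background). In the same list 2 were lower (9.52%, against 11.4% and 19.2%). Replicates 3 and 4 both lay above replicates 1 and 2 in 5 of the 21 and both below in 5 (23.8% each), with a median difference of -0.01. The listed antigen processing genes had all 9 of 9 above. Canx, an endoplasmic reticulum chaperone, and Cd74, the class II invariant chain, differed by -0.31 and -0.22 between the pairs. RT1-M3-1, a nonclassical class I gene, measured 1.51 and 1.41 in replicates 3 and 4, 0.68 and 0.54 in replicates 1 and 2 and 1.03 on the swapped array (fit 1.03, adjusted p = 2.06e-04), so that replicates 3 and 4 stood above replicates 1 and 2 by 0.85, at rank 12 of 9013 genes. RT1-A1, a classical class I gene, measured 0.89 and 0.98 in replicates 3 and 4, 0.62 and 0.75 in replicates 1 and 2 and 0.53 on the swapped array (fit 0.75, adjusted p = 1.83e-05), with no array near 0. RT1-S3, another class I gene, measured 0.52 and 0.46 in replicates 3 and 4, 0.13 and 0.16 in replicates 1 and 2 and 0.55 on the swapped array, a fitted change of 0.36 (adjusted p = 0.00275) that missed the threshold without replicate 3 or without replicate 4 (adjusted p of 0.0153 each). The RT1-S3 call was also lost with an offset of 0 and with Agilent's processed signals (adjusted p of 0.0372 and 0.027). Class I genes of the rat RT1 complex are close copies of each other, and their probes may share signal. RT1-DMa, a class II chaperone subunit, was lower, at -0.46 and -0.61 in replicates 3 and 4, -0.60 and -0.61 in replicates 1 and 2 and -1.02 on the swapped array (fit -0.66, adjusted p = 7.67e-05). Of 9 constitutive proteasome genes, which include Psmb5, Psmb6 and Psmb7, the subunits that the immunoproteasome replaces, none was higher and 1 was lower (11.1%, against 11.4% of all genes). This was Psmb7, at -0.13 and -0.22 in replicates 3 and 4, -0.14 and -0.24 in replicates 1 and 2 and -0.25 on the swapped array (fit -0.19, adjusted p = 0.004), a call lost without replicate 2, 3 or 4 (adjusted p of 0.0222, 0.011 and 0.0228) and of the other sign, 0.33, with median centring. The Psmb7 call was also lost with an offset of 0 and with Agilent's processed signals (adjusted p of 0.0416 and 0.0195). Replicates 3 and 4 both lay above replicates 1 and 2 in 3 of these 9 proteasome genes. Psmb5 measured 0.18 and 0.19 in replicates 3 and 4, -0.02 and 0.02 in replicates 1 and 2 and 0.32 on the swapped array and Psma7, a subunit of the outer ring, 0.29 and 0.30 in replicates 3 and 4, 0.11 and 0.23 in replicates 1 and 2 and -0.02 on the swapped array, and neither passed (adjusted p of 0.0836 and 0.027).

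Several listed genes are neighbours on the GRCr8 chromosomes, with no other protein-coding gene between them. Tap2, Psmb8, Tap1 and Psmb9 lie in this order on chromosome 20, and all 4 had replicates 3 and 4 above replicates 1 and 2, by 0.93, 0.50, 0.33 and 0.26. Their fitted changes in 3D ranged from -0.58 to 0.18, and only Psmb8 passed. Parp9, Dtx3l and Parp14 on chromosome 11 were all higher in 3D, as were Ifitm2, Ifitm1 and Ifitm3 on chromosome 1. Of Ifit2 and Ifit3, also next to each other on chromosome 1, only Ifit3 passed, with a call lost without replicate 1, 3 or 4. Ifit2 was well above background on 5 arrays in 3D but on 1 array in 2D.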

How the data were processed

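RNA of FRT cells was measured on 5 Agilent 2-colour rat arrays. The authors deposited spot and background intensity, as median pixel values read by Agilent Feature Extraction 10.7.3.1 (array design build rn4), not normalized. The log10 ratios that the authors' scanner files also hold, as deposited, are Cy5 over Cy3 of the software's processed signals and were used only to check direction. Their deposited value table holds log2 ratios that, per the methods, were made with normexp, loess and quantiles between arrays. All its columns run 3D over 2D, by comparison with the scanner files.

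In R 4.3.3 with limma 3.58.1, median signals were corrected by normexp (offset 50, which compresses the changes of dim genes), normalized by loess with control and outlier spots at weight 0, and scaled between arrays by quantiles of average intensity, which leaves the ratios in place. The swapped array had its sign turned. Outlier spots (1.12% to 1.6%) were left out, and 0 spots were saturated. Of 30367 probes 17998 had a symbol through RefSeq accessions, for 15154 genes, each read from its brightest probe (2605 had more than 1). A gene was well above background where a share of at least 0.5 of a probe's spots were, on at least 1 array. No gene was filtered out.

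One coefficient was fitted over the 5 arrays, with Benjamini-Hochberg adjustment over all genes and an FDR of 0.01. The comparison of replicates 3 and 4 with replicates 1 and 2 was not tested. Values on all arrays are given for listed genes that passed or were well above background with a difference of at least 0.5 between these pairs, for at most 3 genes that passed in each further pathway list, and for at most 2 with the largest difference. Tap1, Psmb9, Canx, Cd74 and markers were named beyond this rule, after their values were seen. One gene that this rule selects is not reported here. The genes, lists, tests and the split of the replicates into pairs were chosen with earlier results of these data known. The fit was also run on simulated data of 5 independent arrays. Those data had no shared 2D pool, dye effect or pooled swapped array, so they do not bear on these features of the design. The number of arrays limits the precision.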

Additional observations from a re-analysis of the deposited data

Results flagged for a closer look

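Over 47 named genes, 3 had 1 of the 4 replicate arrays farther from the others than Dixon's critical value for the gap over the range. Chance flags about 1 in 20 groups. Ifnar1 had a log2 ratio of 0.23 in replicate 1, where the other 3 gave 0.57 to 0.61. Sting1, read from 1 spot per array, had 1.50 in replicate 1, where the others gave 2.40 to 2.50. RT1-DMa had -0.46 in replicate 3, where the others gave -0.61 to -0.60. The first 2 lay on the same array, and the swapped array gave 0.28 for Ifnar1, 2.15 for Sting1 and -1.02 for RT1-DMa. None of the 3 changed sign or lost its call when that replicate was left out.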

How the results depend on the processing

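The results were recomputed under 15 alternatives, 1 of them (only genes well above background in 3D or 2D on at least 1 array) chosen after seeing the data. The count of listed genes higher in 3D (22) was 19 to 23 outside median centring, and 21 to 22 with a replicate left out. The count lower in 3D (6) was 3 with a normexp offset of 0, and 5 with any replicate left out. It was 4 with Agilent's processed signals and 4 with a term for the dye in the fit. With the dye term the calls of Ifit3 and Psmb8 were lost (adjusted p of 0.0234 and 0.0138). With median centring in place of loess, limma called 0 listed genes higher and 0 lower, where 7 of 15154 genes passed at all (25 higher and 1 lower at an unadjusted p under 0.05). In that setting the median of all genes was -0.05, the median of the listed genes on the swapped array was -0.14, and Isg20 (0.11), Psmb8 (0.019) and Psmb7 (0.33) changed sign. It leaves the intensity-dependent dye bias in place. Replicates 3 and 4 lay above replicates 1 and 2 in 28 to 34 genes (29), and in 31 to 36 with a replicate left out (34.7% to 38.7% of all genes). They lay below in 4 to 8 with a replicate left out. Calls were also lost with offset 0 or Agilent's processed signals for Bst2, Psmb8, Ifit3 and Irf7, among others. Values of dim genes were larger in these 2 settings, as for Ifit3 (-0.69 and -1.10), Irf7 (0.71 and 0.94) and Dtx3l (0.58 and 0.89). The cause was not tested. No paired analysis was possible because the 2D cultures were pooled, so no replicate number is shared between the conditions. Irf2, Ifih1, Ifit1 and Gbp5 were not well above background, so their ratios are not measured differences.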
